A study of Mus musculus with 21 samples.

Results

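The genes described are those of cholesterol synthesis together with the machinery and other targets of the transcription factor SREBP2, in livers of mice fed a high-fat diet with or without quercetin. They were taken from a list of 31 names: 20 enzymes of the pathway, 6 genes of the SREBP2 machinery and 5 other SREBP2 targets or sterol handling genes. All 31 had a probe on the array, and all 31 were among the 19718 genes tested. The Cy5 signal of each member was well above background on all 21 arrays, and no member spot was saturated in it, so the filter on dim probes left out no member.

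The HF-Q group held 10 adult males of the inbred mouse strain C57BL/6J, whose high-fat diet contained quercetin, a plant flavonoid, at 0.33% by weight for 12 weeks. The HF group held 11 such mice that ate the high-fat diet without quercetin. Both groups had first spent 3 weeks on a normal-fat diet, and all were fasted for 2 to 4 hours before the liver was taken. Each liver was hybridised in Cy5 to its own 2-colour Agilent array against a Cy3-labelled pool of all livers, so values are log2 ratios relative to that pool. The dyes were not swapped, so a ratio of 0 need not mark the level of the pool for every probe. The member Mbtps1, for example, was below 0 in every liver (at most -0.054 in HF-Q and -0.017 in HF). Differences between the groups compare livers in the same dye. Livers are whole tissue, in which fewer cells of a type and less RNA per cell cannot be told apart.

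Cholesterol is built from acetyl-CoA through mevalonate to farnesyl diphosphate, which is joined to squalene, closed to lanosterol and trimmed to cholesterol. Its synthesis in the liver is controlled by sterols: when the membrane of the endoplasmic reticulum is low in cholesterol, Scap escorts SREBP2 to the Golgi, where proteases release the part that enters the nucleus and activates the genes of the pathway. Insig proteins hold Scap back when sterols are plentiful.

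Promoter sequences from RefSeq (GRCm38.p6) were available for 26 of the 31 members, from 250 bases before to 50 bases after the annotated start. The other 5 are Fdps, Fdft1, Sqle, Stard4 and Npc1. The windows were searched on both strands for TCACNCCAC, letters of the sterol regulatory element that SREBP2 binds, for CCAAT, the Y box bound by NF-Y, and for GGGCGG, the GC box bound by Sp1, factors known to act beside SREBP2. TCACNCCAC was present in 1 of 26 member genes (3.85%), Hmgcs1, against 1.44% of all 27025 genes with such windows. CCAAT was present in 22 of 26 member genes (84.6%), against 41.1% of all genes, and GGGCGG in 23 of 26 (88.5%), against 38.2% of all genes. A match is a description of letters, not a bound site, and the absence of a match says only that these letters were not in this window. The 250 bases before the start are shown for Hmgcs1, the member with a TCACNCCAC match, for Srebf2, the gene of the factor itself, and for Mvk, which had the most CCAAT matches of all members and was chosen after the matches were seen. Capitals mark matches of the 3 motifs on either strand.
Hmgcs1, chr13:119690101-119690350, plus strand: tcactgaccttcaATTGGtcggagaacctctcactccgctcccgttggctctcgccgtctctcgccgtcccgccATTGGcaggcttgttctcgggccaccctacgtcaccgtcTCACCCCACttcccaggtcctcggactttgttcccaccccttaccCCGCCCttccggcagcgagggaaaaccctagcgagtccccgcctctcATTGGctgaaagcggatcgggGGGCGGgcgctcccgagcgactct
Srebf2, chr15:82147019-82147268, plus strand: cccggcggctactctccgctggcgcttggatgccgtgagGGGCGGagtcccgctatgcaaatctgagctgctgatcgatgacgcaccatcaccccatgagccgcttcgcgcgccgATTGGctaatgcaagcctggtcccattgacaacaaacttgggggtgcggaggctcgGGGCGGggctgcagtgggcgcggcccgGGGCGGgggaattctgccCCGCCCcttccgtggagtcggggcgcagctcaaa
Mvk, chr5:114444019-114444268, plus strand: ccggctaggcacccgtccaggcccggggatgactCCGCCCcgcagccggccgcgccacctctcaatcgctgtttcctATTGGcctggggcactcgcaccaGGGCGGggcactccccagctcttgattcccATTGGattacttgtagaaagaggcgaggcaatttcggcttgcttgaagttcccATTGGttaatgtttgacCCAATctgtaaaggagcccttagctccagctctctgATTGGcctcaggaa
In Hmgcs1 the TCACNCCAC match began at position -137 from the start, between inverted CCAAT matches at -176 and -45. The window of Mvk held 5 CCAAT matches, 4 of them inverted, and 2 GC boxes. The window of Srebf2 held 1 inverted CCAAT match and 5 GC boxes, 4 of them before the start.

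**Figure D1:**
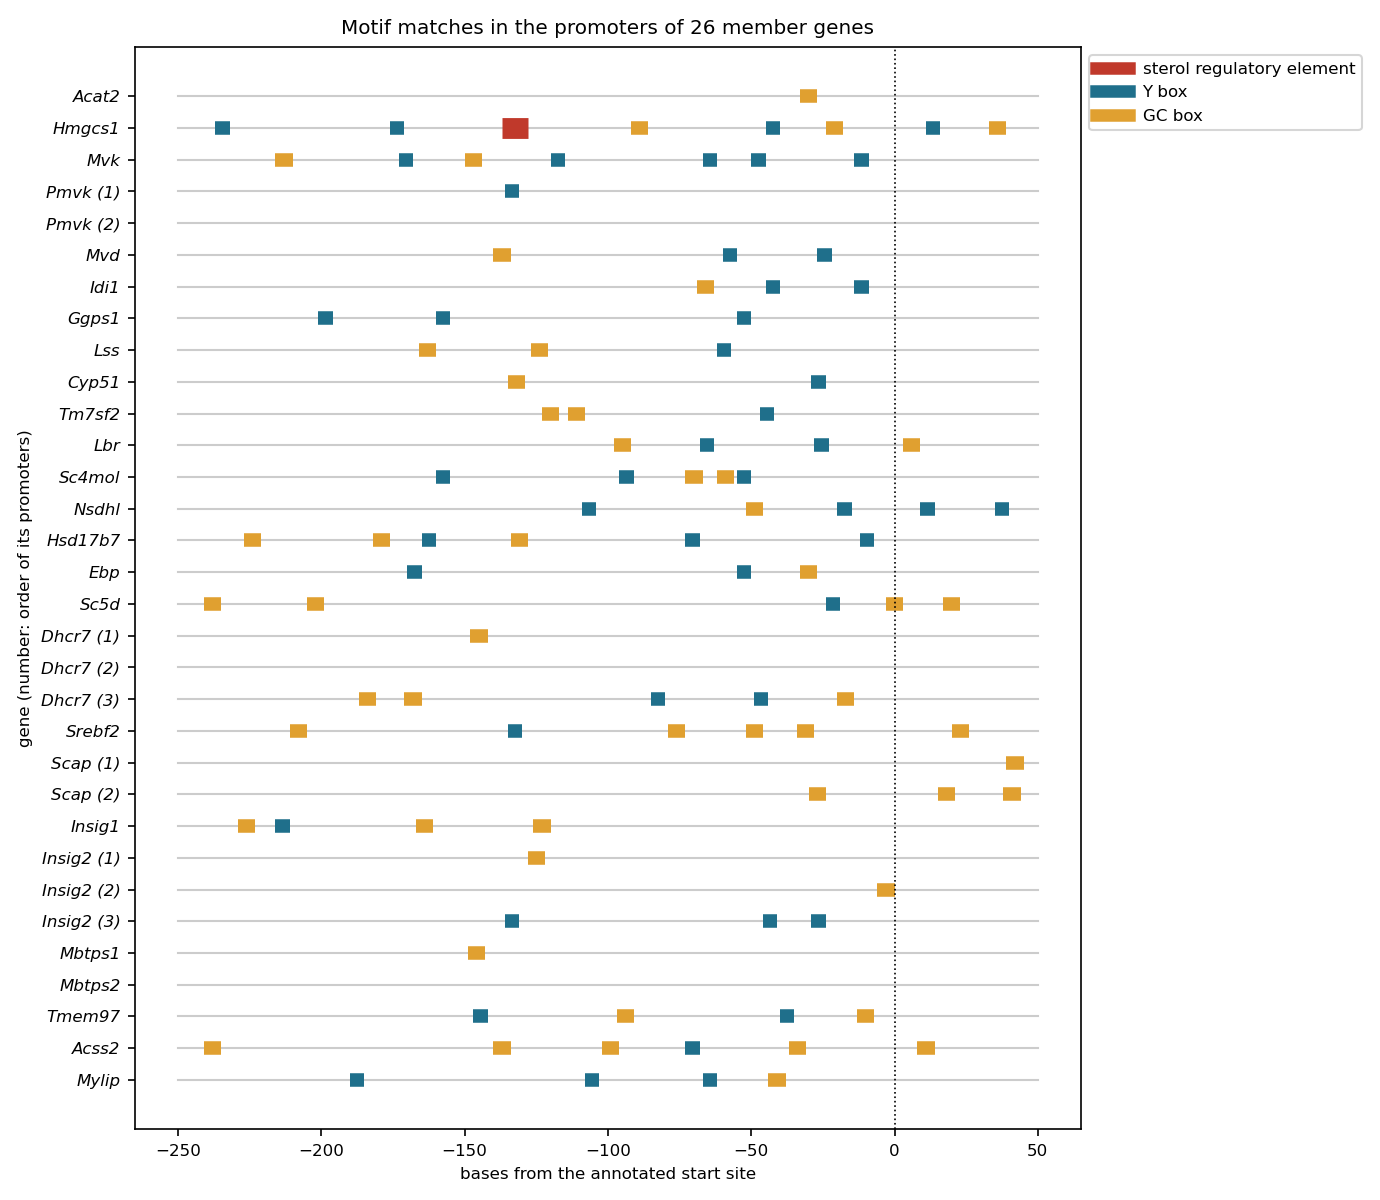
Positions of the 3 motifs in promoter windows of the 26 member genes with a RefSeq promoter (x axis: bases from the annotated start site, y axis: gene, with a number where a gene has several promoters). Coloured blocks are matches on either strand: the sterol regulatory element letters occur in Hmgcs1 alone, and Y boxes in 22 of the genes.

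The threshold was an adjusted p of 0.05, by limma's moderated test with adjustment by Benjamini-Hochberg over 19718 genes. No gene reached it, so 0% of all genes and 0 of 31 members were called, and the lowest adjusted p over all genes was 0.382. The adjusted p of the members lay between 0.771 and 0.999. At an unadjusted p under 0.05 in limma there were 1169 genes (5.93%), and those higher in HF-Q were 3.02% of all genes. At that level 12 of 31 members were higher in HF-Q and 0 were lower. With median centring, and likewise with Feature Extraction signals, 6 members were higher, and the enzymes among them were 5 and 6. All genes higher in HF-Q at that level were 169 and 322 under these settings, against 596 in the main fit. Within slide 1 alone 9 members were higher and 2 lower, Mylip at -0.21 and Npc1 at -0.46, against 666 and 690 of all genes. A log2 fold change above 0 was measured for 47% of all genes and for 26 of 31 members. That share of all genes moved with the scaling, to 65.7% with median centring and 37.8% with Feature Extraction signals, with 27 and 26 members above 0. The median over the members was 0.18, and the median over all genes was -0.0043. By the brightest probe of each, the 20 enzymes all had a value above 0, with a median of 0.29. Of these enzymes 11 had a limma unadjusted p under 0.05. Where the Cy5 signal was used alone, 18 of 20 were above 0, with Ggps1 and Ebp just below 0. The SREBP2 machinery and the 5 other genes had medians of 0.011 and 0.037. These counts describe a list whose members were chosen with earlier results of these data known. The enzymes vary together between livers, so the counts of enzymes, here and below, are not counts of separate results. The share of probes well above background was 44.2% to 51.3% on an array, each of the 3 slides held both groups, and all 8 hepatocyte markers tested were well above background on all 21 arrays. Of these markers 6 of 8 had a log2 fold change below 0, at a median of -0.055. The mean of their ratios to the pool was 0.11 to 0.38 in HF-Q livers and 0.16 to 0.44 in HF livers. It was thus above 0 in every liver of both groups, so 0 is not the level of the pool for these probes. Of 7 stellate cell markers 4 had a value below 0. They were Col1a2 at -0.18 ± 0.09 (SE, limma unadjusted p = 0.0458, adjusted p = 0.832), Col1a1 at -0.16 ± 0.10, Col3a1 at -0.12 ± 0.08 and Dcn at -0.052 ± 0.077. Lrat, Des and Rgs5 were above 0, at 0.099 ± 0.075, 0.041 ± 0.032 and 0.023 ± 0.060. The mean of the 7 was -0.23 to 0.073 in HF-Q livers and -0.17 to 0.19 in HF livers. Values above 0 were measured for 3 of 7 Kupffer cell and macrophage markers and 1 of 6 endothelial markers. They were measured for 1 of 4 T and B cell, 0 of 3 cholangiocyte and 0 of 2 adipocyte markers. The part of these markers in the enzyme values was not tested.

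Among the 8 enzymes of the mevalonate part, 5 had an unadjusted p under 0.05, and the median log2 fold change was 0.35. Acat2, the cytosolic thiolase that joins acetyl-CoA, had ratios of -0.040 to 0.21 in HF-Q (median 0.070) and of -0.099 to 0.17 in HF (median 0.019), a log2 fold change of 0.027 ± 0.043 (SE, n = 10 and 11 livers). Hmgcs1, the synthase that adds the next acetyl unit, ran from -0.61 to 0.51 in HF-Q (median 0.19) and from -1.36 to 0.77 in HF (median -0.23). Both the lowest and the highest liver for Hmgcs1 were HF livers, and the HF-Q livers lay within that range. Its log2 fold change was 0.34 ± 0.20 (limma unadjusted p = 0.0967, adjusted p = 0.885), with a 95% interval of -0.067 to 0.75.

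Mvk and Pmvk, the kinases that phosphorylate mevalonate in sequence, differed by similar amounts. Mvk stood at -0.23 to 0.28 in HF-Q (median 0.081) and at -0.95 to 0.26 in HF (median -0.34), and 10 of 10 HF-Q livers were above the HF median. The difference was 0.28 ± 0.11 for Mvk (limma unadjusted p = 0.0198). Pmvk stood at -0.25 to 0.62 in HF-Q (median 0.20) and at -0.85 to 0.51 in HF (median -0.12), a difference of 0.36 ± 0.13 (limma unadjusted p = 0.0122). For both kinases several HF livers reached the range of the HF-Q livers.

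Mvd, the decarboxylase that makes isopentenyl diphosphate, ran from -0.38 to 0.59 in HF-Q (median 0.16) and from -1.43 to 0.90 in HF (median -0.21). Its difference of 0.43 ± 0.21 had a limma unadjusted p of 0.0487, and its HF livers were spread more widely than those of most members (SD 0.66 in HF, 0.30 in HF-Q). Idi1, which isomerises that product, lay between -0.65 and 0.36 in HF-Q (median 0.097) and between -1.53 and 0.31 in HF (median -0.26), a difference of 0.47 ± 0.19 (limma unadjusted p = 0.0248). HF-Q replicate 10 lay far below the other HF-Q livers for Idi1, and 4 HF livers lay below even that one.

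Fdps, the synthase of farnesyl diphosphate, had the lowest p of all members. Its ratios were -0.35 to 0.32 in HF-Q (median 0.077) and -1.16 to 0.29 in HF (median -0.25). The log2 fold change was 0.40 ± 0.14 (limma unadjusted p = 0.0103, adjusted p = 0.771), and 9 of 10 HF-Q livers were above the HF median. Ggps1, which leads from farnesyl diphosphate into the geranylgeranyl branch rather than to sterols, differed by 0.015 ± 0.039, and all its livers lay between -0.11 and 0.089 in HF-Q and between -0.19 and 0.083 in HF.

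**Figure D2:**
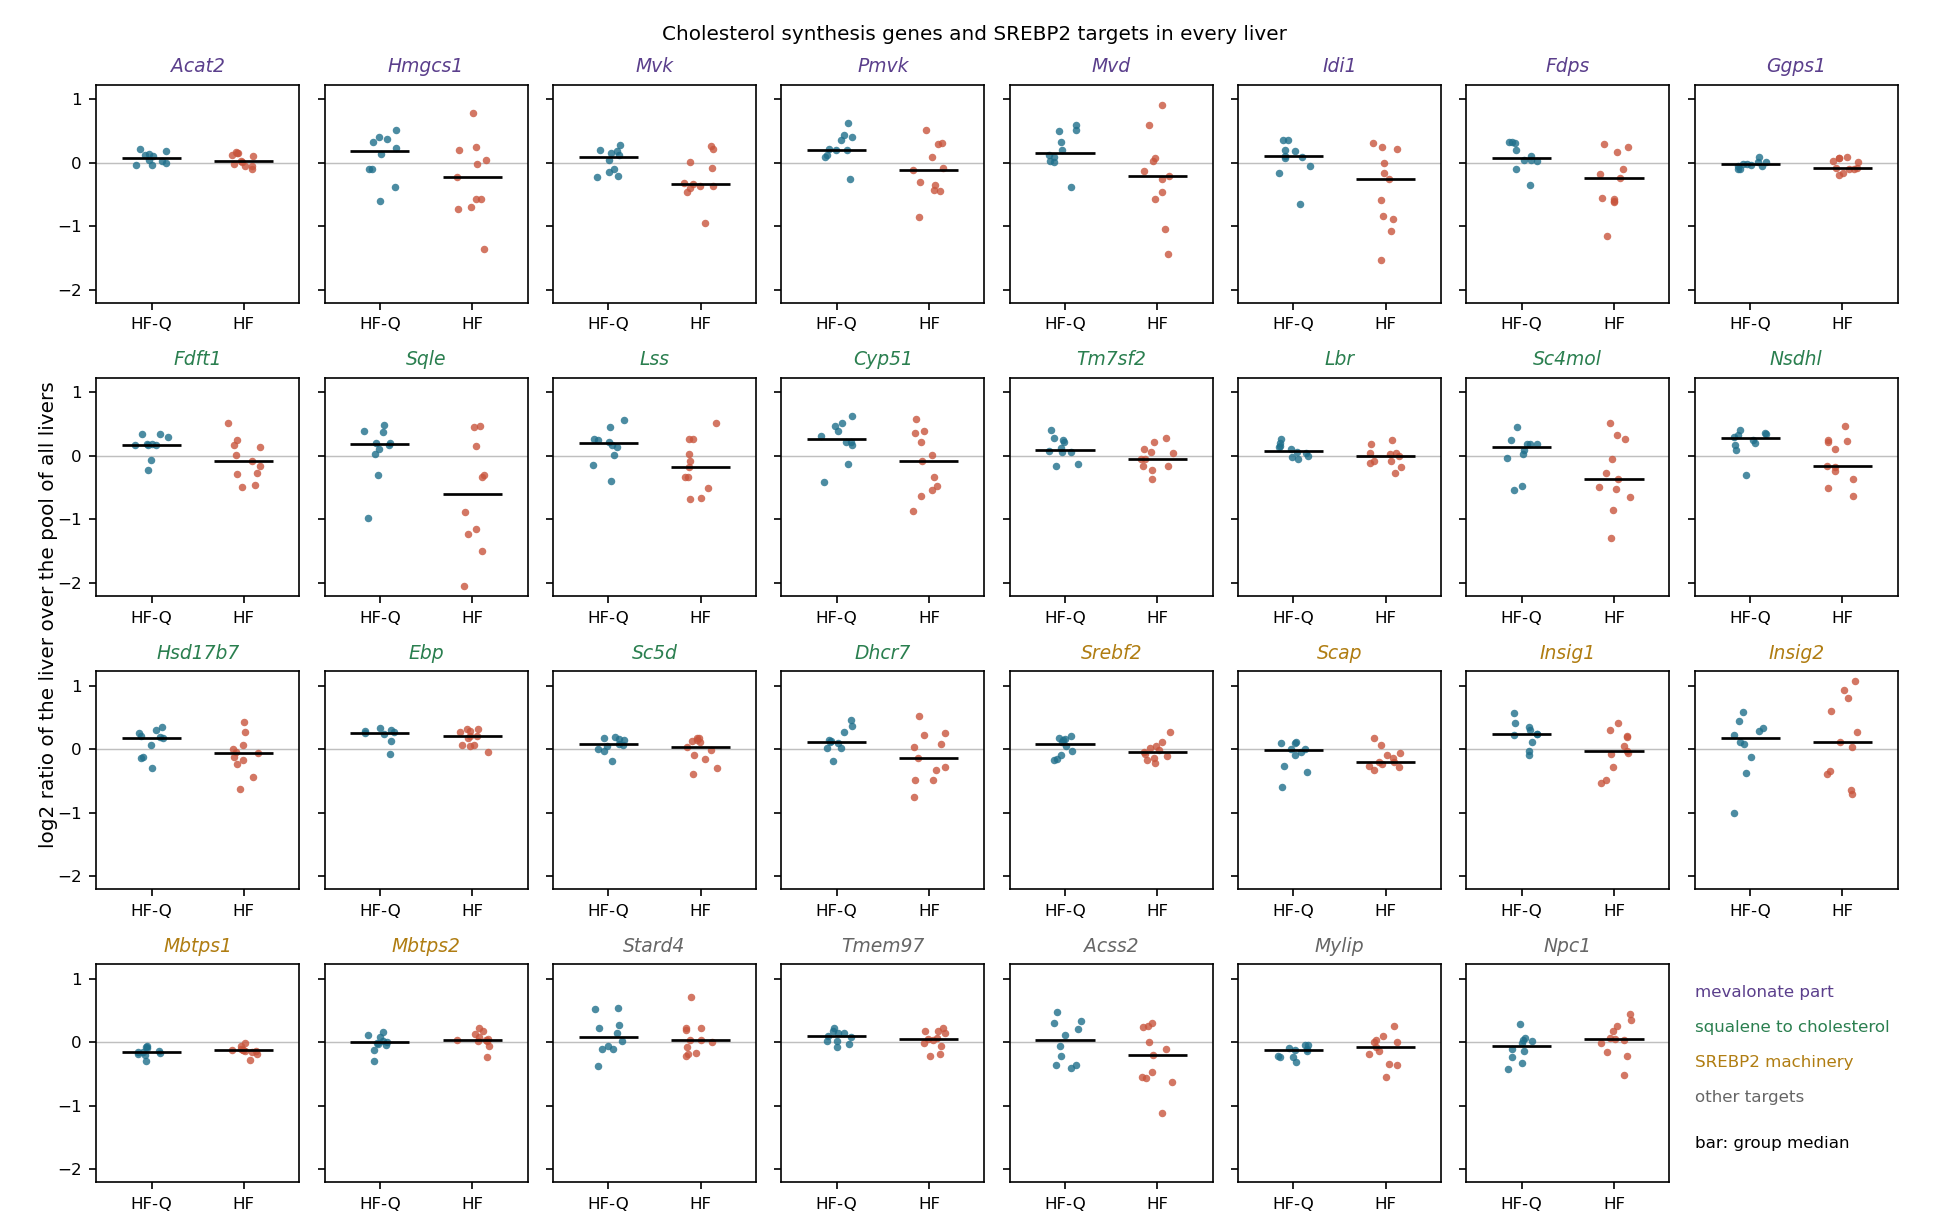
Log2 ratio of each liver over the pool of all livers (y axis) for the 31 genes, 1 panel a gene in pathway order, with HF-Q livers on the left and HF livers on the right of each panel, and a bar at the group median. Sqle, Idi1, Hmgcs1 and Mvd show HF livers far below the HF-Q livers, and the groups overlap in every panel.

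Of the 12 enzymes from squalene to cholesterol, 6 had an unadjusted p under 0.05, and the median log2 fold change was 0.24. Fdft1, which joins farnesyl diphosphate to squalene, stood at -0.22 to 0.35 in HF-Q (median 0.18) and at -0.48 to 0.52 in HF (median -0.088), a difference of 0.22 ± 0.10 (limma unadjusted p = 0.0449). Sqle, the epoxidase that is a rate-limiting step of the sterol part, had the largest difference of all members. Its ratios ran from -0.98 to 0.49 in HF-Q (median 0.19, n = 10) and from -2.05 to 0.47 in HF (median -0.61, n = 10, since a marked spot left out HF replicate 1). HF-Q replicate 10 was the lowest HF-Q liver, and 4 HF livers lay below it. The liver left out, HF replicate 1, was the highest HF liver for Idi1 (0.31), whose r with Sqle was 0.99 with group means subtracted. Its absence may therefore enlarge the difference of Sqle, which was not tested. The level in HF-Q was 1.63 times that in HF, a log2 fold change of 0.70 ± 0.27 (limma unadjusted p = 0.0176, adjusted p = 0.790; 95% interval 0.13 to 1.27).

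Lss, the cyclase that forms lanosterol, ranged from -0.40 to 0.56 in HF-Q (median 0.20) and from -0.68 to 0.52 in HF (median -0.18), a difference of 0.31 ± 0.14 (limma unadjusted p = 0.0355). Cyp51, the P450 that removes a methyl group from lanosterol, ranged from -0.41 to 0.63 in HF-Q (median 0.27) and from -0.87 to 0.58 in HF (median -0.087), a difference of 0.37 ± 0.16 (limma unadjusted p = 0.0336). The upper ends of the groups were close for both enzymes, and the HF livers reached further down. Tm7sf2 and Lbr, which share the sterol reductase activity of the next step, differed by 0.14 ± 0.08 and 0.10 ± 0.06, with limma unadjusted p of 0.0765 and 0.0732.

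Sc4mol, now named Msmo1, is the methyl oxidase of the pathway. It lay between -0.53 and 0.45 in HF-Q (median 0.14) and between -1.30 and 0.52 in HF (median -0.37), a difference of 0.34 ± 0.18 (limma unadjusted p = 0.0689). Nsdhl, the dehydrogenase that acts with it, lay between -0.29 and 0.41 in HF-Q (median 0.27) and between -0.63 and 0.47 in HF (median -0.16), a difference of 0.29 ± 0.12 (limma unadjusted p = 0.0224). All HF-Q livers but replicate 10 had a ratio above 0 for Nsdhl, and the HF livers lay on both sides of 0. Hsd17b7, the ketosteroid reductase that follows, differed by 0.18 ± 0.10 (limma unadjusted p = 0.0951).

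The last steps gave smaller values except for Dhcr7. Ebp, the sterol isomerase, differed by 0.044 ± 0.059 (n = 8 and 11, since marked spots left out HF-Q replicates 9 and 10). HF-Q replicate 10 was the lowest HF-Q liver for 13 of the 20 enzymes, so its absence may raise the value of Ebp. Sc5d, the desaturase, differed by 0.086 ± 0.068. Dhcr7, the reductase that makes cholesterol, ranged from -0.19 to 0.47 in HF-Q (median 0.12) and from -0.76 to 0.52 in HF (median -0.14). Its log2 fold change was 0.27 ± 0.12 (limma unadjusted p = 0.0410), and 9 of 10 HF-Q livers were above the HF median.

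Of the 6 genes of the SREBP2 machinery, 3 had a value above 0 and 3 below it, each by its brightest probe. Srebf2, the gene of SREBP2, stood at -0.17 to 0.21 in HF-Q (median 0.080) and at -0.22 to 0.27 in HF (median -0.047), a difference of 0.069 ± 0.060 (limma unadjusted p = 0.264). Scap, its escort, differed by 0.041 ± 0.081. Insig1, itself an SREBP target and the sterol-sensitive anchor of Scap, ran from -0.093 to 0.57 in HF-Q (median 0.24) and from -0.54 to 0.41 in HF (median -0.023). The groups overlapped for Insig1, at a difference of 0.26 ± 0.11 (limma unadjusted p = 0.0221, adjusted p = 0.790). HF-Q replicate 10, the lowest HF-Q liver for 13 of the 20 enzymes, was the highest of all livers for Insig1.

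Insig2, the second anchor, which is not an SREBP target, varied more between livers than the other 10 members that are not enzymes: it ran from -1.01 to 0.59 in HF-Q (median 0.17) and from -0.71 to 1.07 in HF (median 0.12). Its difference was -0.10 ± 0.22 (limma unadjusted p = 0.649). The proteases of the Golgi that release SREBP2, Mbtps1 and Mbtps2, differed by -0.020 ± 0.035 and -0.057 ± 0.054. The 95% interval of the difference was -0.092 to 0.052 for Mbtps1 and -0.17 to 0.055 for Mbtps2. Another kept probe gave the opposite sign for each, 0.057 for Mbtps1 and 0.012 for Mbtps2.

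Among the other 5 genes, Acss2, the cytosolic acetyl-CoA synthetase that feeds lipid synthesis, had the largest value. It ranged from -0.41 to 0.47 in HF-Q (median 0.032) and from -1.11 to 0.30 in HF (median -0.20), a difference of 0.26 ± 0.16 (limma unadjusted p = 0.108). Stard4, a carrier of sterols through the cytosol, and Tmem97, which binds Npc1, differed by 0.037 ± 0.112 and 0.045 ± 0.054. Mylip, the ubiquitin ligase that removes lipoprotein receptors and a target of LXR rather than of SREBP2, differed by -0.039 ± 0.075. Npc1, which exports cholesterol from lysosomes, stood at -0.41 to 0.28 in HF-Q (median -0.058) and at -0.51 to 0.45 in HF (median 0.052), a difference of -0.13 ± 0.10 (limma unadjusted p = 0.209).

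The slides, as numbered from the scan times in the file headers, were examined one by one because the arrays of a slide were handled together. Slide 1 held 4 HF-Q and 3 HF arrays, slide 2 held 2 and 4, and slide 3 held 4 and 4. The enzyme median was 0.40 within slide 1, 0.32 within slide 2 and 0.10 within slide 3, and 0.30 with the slide as a block. Of the 20 enzymes, 18 had a value above 0 within all 3 slides. The exceptions on slide 3 were Mvd at -0.045, against 0.85 and 0.69 on slides 1 and 2, and Ggps1 at -0.0030. Hmgcs1 was at 0.70, 0.54 and 0.017 and Sqle at 1.05, 0.78 and 0.46 on slides 1, 2 and 3. Pmvk, at 0.44, 0.38 and 0.40, and Nsdhl, at 0.35, 0.28 and 0.28, were close on all 3. The number of enzymes higher in HF-Q at a limma unadjusted p under 0.05 was 7, 7 and 1 on slides 1, 2 and 3. Of all 19718 genes, 666, 347 and 394 were higher at that level on these slides. Whether the slides differ was not tested.

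**Figure D3:**
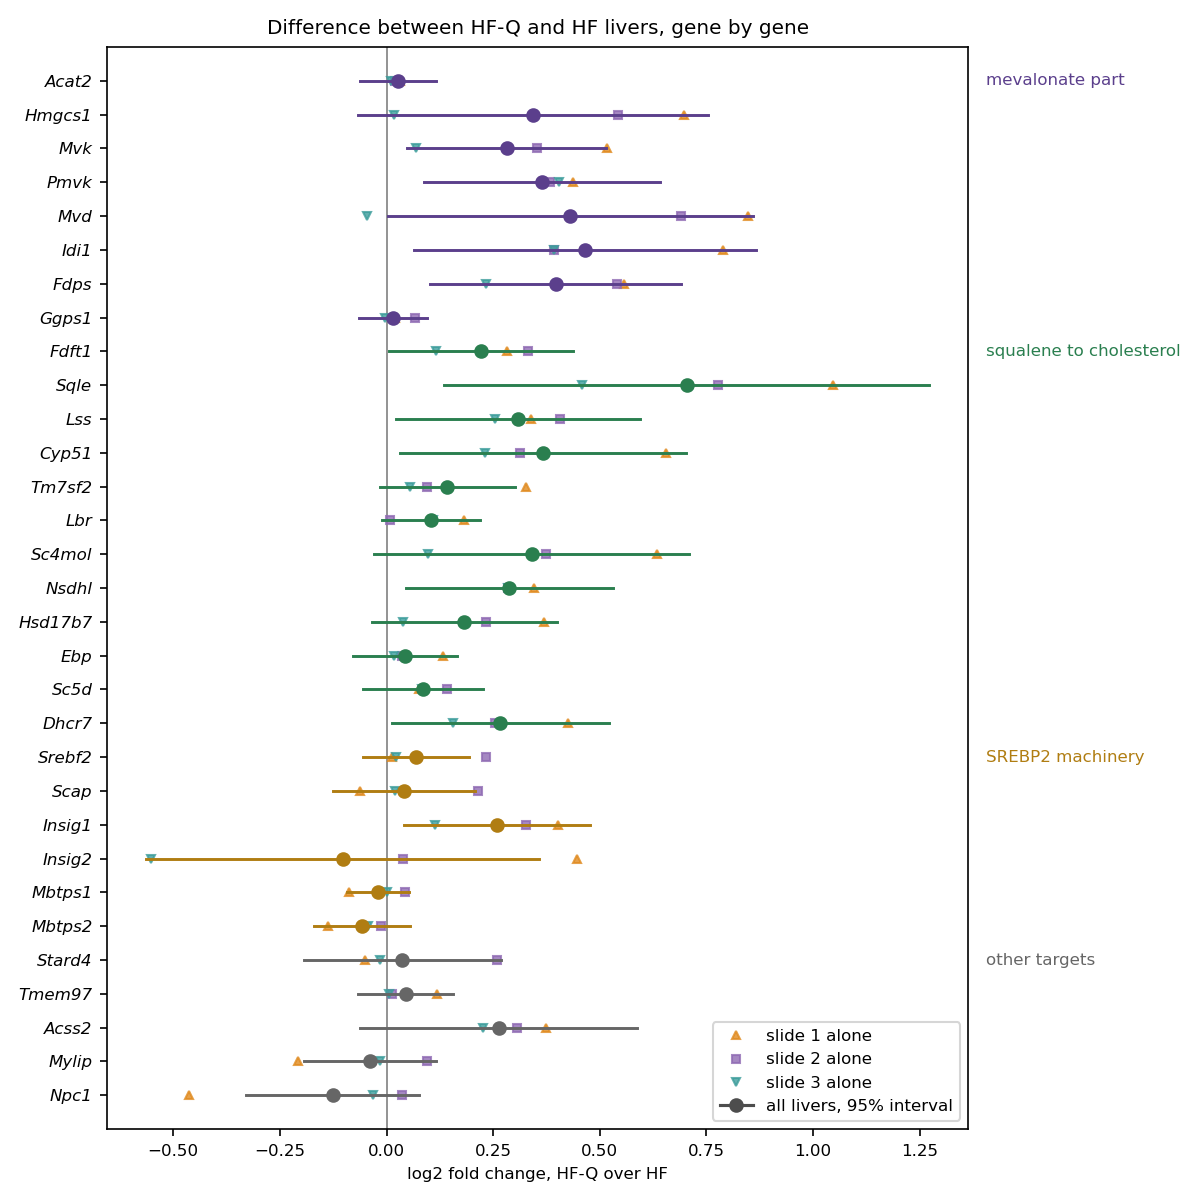
Log2 fold change of HF-Q over HF (x axis) for each of the 31 genes in pathway order (y axis). Circles with bars give the value over all livers with its 95% interval, and the smaller symbols give the value within slide 1, 2 or 3 alone. All 20 enzyme circles lie to the right of 0, and the slide 3 values of most enzymes lie left of those of slides 1 and 2.

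Averaged over the 20 enzymes, HF-Q livers had a log2 ratio of 0.11 ± 0.19 (SD, n = 10) and HF livers of -0.15 ± 0.34 (SD, n = 11). The HF-Q livers ran from -0.29 in replicate 10 to 0.33 in replicate 3, with a median of 0.14. The HF livers ran from -0.79 in replicate 11 to 0.38 in replicate 7, with a median of -0.26. So the livers with the lowest and with the highest enzyme levels were both HF livers. HF replicate 11 was the lowest HF liver for 17 of the 20 enzymes, and HF replicate 7 the highest HF liver for 13. Within slide 3, which held HF replicate 7, the HF-Q livers ran from -0.085 to 0.26, within the range of the HF livers, -0.47 to 0.38.

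Markers of pancreatic acinar cells were high in HF replicate 11. Of 7 listed markers 5 were tested, and the mean of these, Amy2a5, Cpa1, Cela1, Cela2a and Ctrb1, was -0.82 to -0.13 in HF-Q livers, against 2.13 in HF replicate 11, 1.53 in HF replicate 5 and at most -0.35 in the other HF livers. Of these markers, Cela2a was well above background on 10 of 21 arrays and Cpa1 on 13. HF replicate 5 had an enzyme mean of 0.076, above the median of its group. The part of these acinar markers in the enzyme values was not tested. Without both livers, an exclusion chosen after seeing the data, all 20 enzymes still had a value above 0, with a median of 0.24, and 6 had an unadjusted p under 0.05. Without HF replicate 11 alone these were 20, 0.22 and 6. Without HF replicate 11 and HF-Q replicate 10, the lowest liver of each group, they were 20, 0.26 and 9. In the same order of these fits, 497, 613 and 836 of all genes were higher in HF-Q at that level, against 596 with all livers.

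Single livers moved the count of members with an unadjusted p under 0.05 and not the count of enzymes above 0, which was 20 whichever array was left out. Since the enzymes vary together, those 20 are not separate results. The count of members with an unadjusted p under 0.05, 12 with all livers, was 7 without HF-Q replicate 3 or HF replicate 4, 8, 9 or 11. It was 17 without HF replicate 7. Of the other arrays, leaving out HF-Q replicate 1, 2 or 6 or HF replicate 3 or 6 gave 8, and the remaining exclusions gave 9 to 16. All genes higher in HF-Q at that level were 596 with all livers. With 1 array left out they ran from 471 (without HF replicate 3) to 806 (without HF-Q replicate 10).

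**Figure D4:**
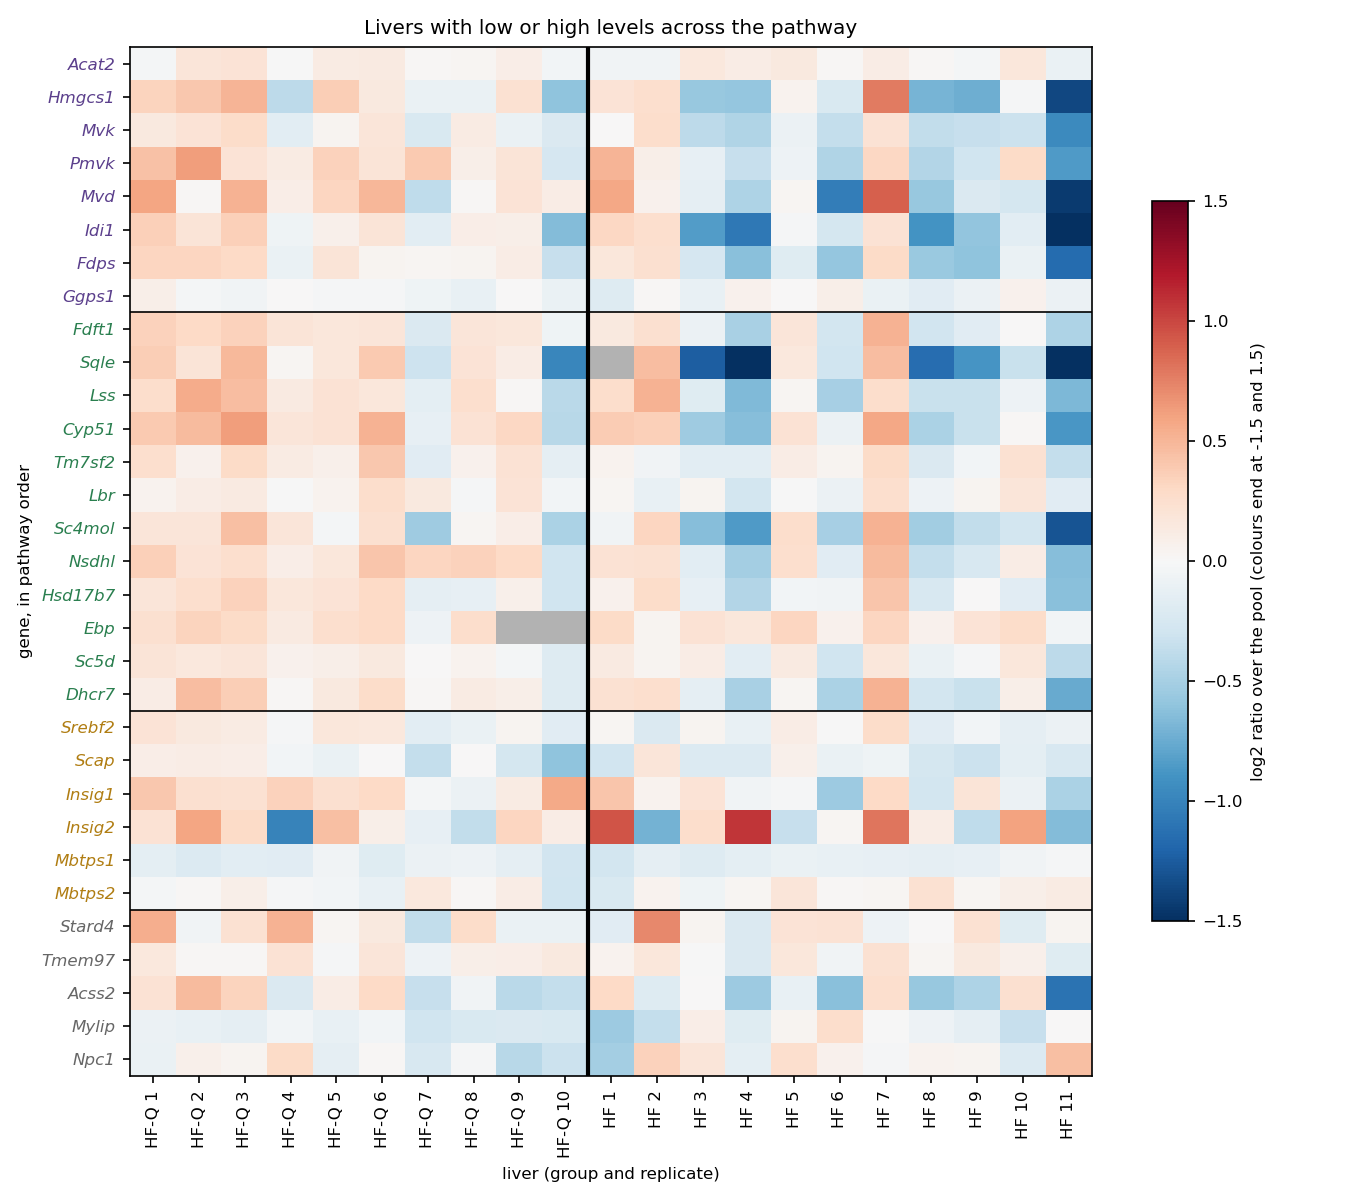
Log2 ratio over the pool (colour) for the 31 genes in pathway order (rows) in every liver (columns, HF-Q left of the black line and HF right of it). Grey cells are spots left out. The columns of HF replicate 11 and of HF-Q replicate 10 are blue through nearly all enzymes, and that of HF replicate 7 is red through nearly all of them.

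The values of most enzymes had a smaller SD among HF-Q livers than among HF livers. The SD over livers was smaller in HF-Q for 19 of the 20 enzymes (95%) and for 25 of 31 members (80.6%), against 52.8% of all tested genes. The median ratio of the SD in HF-Q over that in HF was 0.58 for the enzymes, 0.65 for the members and 0.97 for all genes. For Sqle the SD was 0.43 in HF-Q and 0.86 in HF, for Mvk 0.19 and 0.34, and for Dhcr7 0.19 and 0.38. Ebp was the exception among the enzymes, with an SD of 0.13 in both groups. The enzymes vary together, so these are not independent counts, and the difference in SD was not tested.

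The enzymes also varied together from liver to liver within the groups. With each group's mean subtracted, the median Pearson r over the 190 pairs of enzymes was 0.74, and 150 pairs (78.9%) were above 0.5. Over all 465 pairs of members the median was 0.47, and over all pairs of the 19230 genes with a value on every array it was 0.0020, with 3.47% above 0.5. These pairs share the same 21 arrays and are given as a description. Against Hmgcs1, used as the index gene, 20 of 30 relations had an adjusted permutation p under 0.05 by Pearson's r and 19 by Spearman's rho (100000 resamples within groups, two-sided, adjusted over 30 relations). By r they included 17 of the 19 other enzymes, Srebf2, Scap and Acss2. Tmem97 (r = 0.41, adjusted permutation p = 0.129) and Stard4 (r = 0.077, adjusted permutation p = 0.785) did not pass. Nor did Insig1, Insig2, Mbtps1, Mbtps2, Mylip and Npc1. For Tmem97 r was -0.41 within HF-Q and 0.72 within HF. Lbr passed by r and not by rho (rho = 0.44, permutation p = 0.0565, adjusted p = 0.0848). The highest was Fdps, with r = 0.93 and rho = 0.93 (permutation p = 1e-05 for each, the smallest these resamples can give). Cyp51 followed with r = 0.92 and rho = 0.91, and Idi1 with r = 0.91 and rho = 0.89, at the same p.

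The livers farthest from the median of Hmgcs1 were HF replicates 11 and 7. Without them r with Hmgcs1 was 0.88 for Fdps, 0.89 for Cyp51 and 0.88 for Idi1. It was 0.37 for Lbr, against 0.58 with all livers, and 0.39 for Ebp, against 0.59, so these relations rest in large part on those livers. Srebf2 had r = 0.58 and rho = 0.54 with Hmgcs1 (permutation p = 0.00642 and 0.0125, adjusted p = 0.0107 and 0.0198), and r = 0.49 without those livers. This is the relation of its brightest probe. The second probe of Srebf2, well above background on 21 arrays, had r = -0.032 with the brightest one. The relation of that second probe to Hmgcs1 was not tested. The median r over the 30 genes was 0.66 within HF-Q and 0.76 within HF, and 0.90, 0.42 and 0.77 within slides 1, 2 and 3. With both slide and group means subtracted, 21 of 30 relations passed.

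The relation of Insig1 to Hmgcs1 did not pass. Its r was 0.34 (rho = 0.24, permutation p = 0.178 and 0.334, adjusted p = 0.223 and 0.417), at -0.22 within HF-Q and 0.55 within HF, and 0.0085 without HF replicates 11 and 7. With other enzymes the r of Insig1 ran from -0.24 for Ggps1 to 0.81 for Mvd, with Ebp at 0.60, Sc5d at 0.58, Fdft1 at 0.53, Dhcr7 at 0.51 and Fdps at 0.50. Acat2 and Ggps1 were the enzymes whose relation to Hmgcs1 passed by neither measure, at r = 0.46 and 0.18 (rho = 0.40 and 0.19, permutation p = 0.0423 and 0.507 for r, adjusted p = 0.0605 and 0.585). With slide means subtracted as well, Acat2 passed, at r = 0.57 (adjusted permutation p = 0.0373). Among the members with a value on every array, which leaves out Sqle and Ebp, r with the mean of the other members was highest for Cyp51, Sc4mol and Dhcr7, at 0.95, 0.94 and 0.93, and it was below 0 for Mbtps2, Npc1, Mbtps1 and Mylip.

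**Figure D5:**
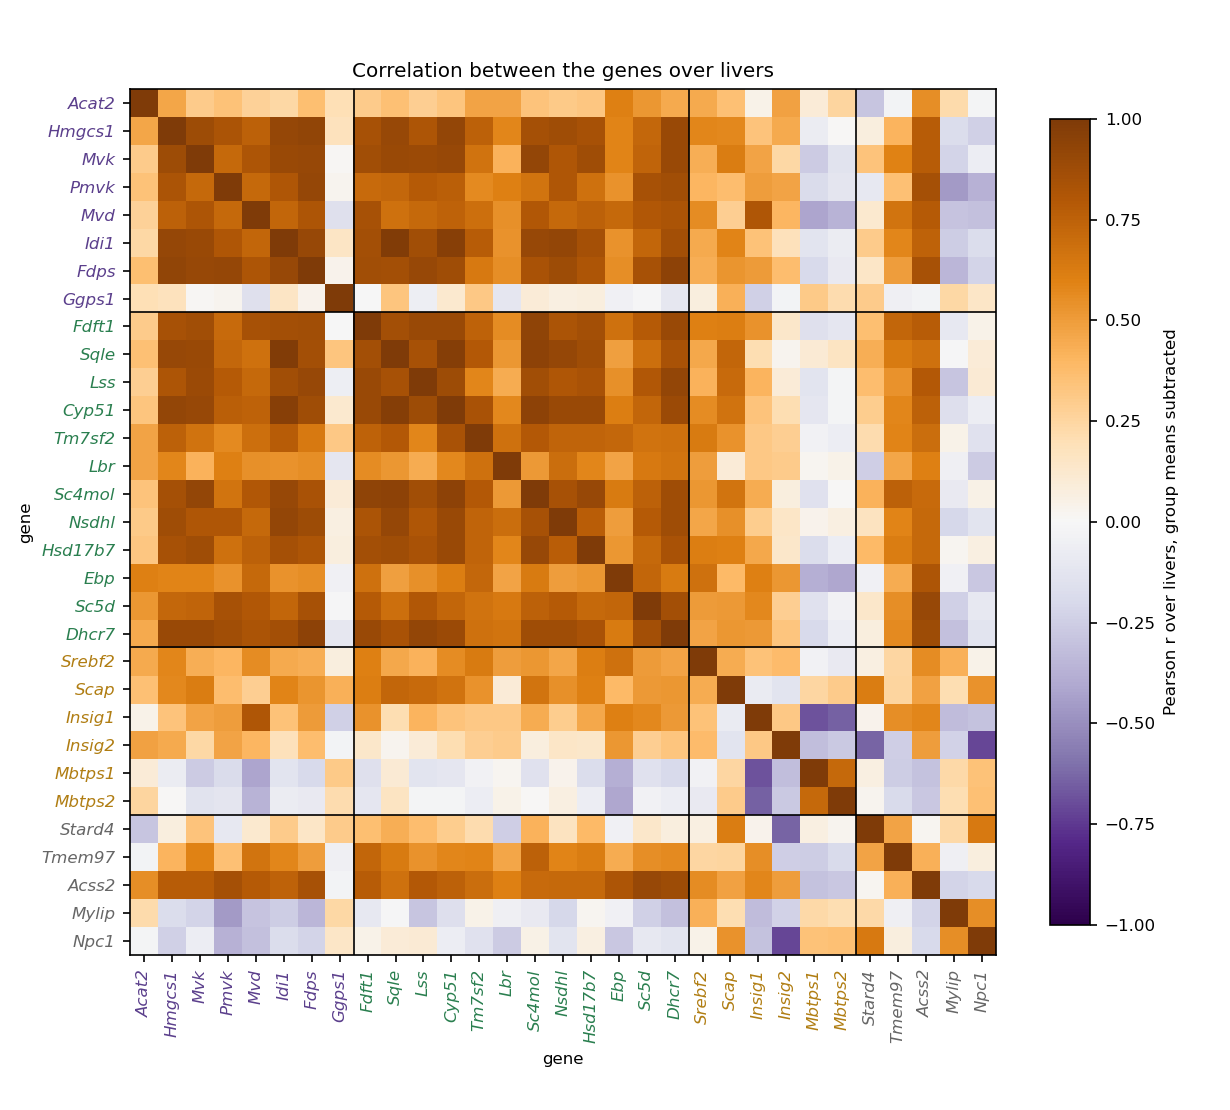
Pearson r between each pair of the 31 genes over the 21 livers, with group means subtracted (both axes list the genes in pathway order, black lines part the 4 groups of genes). The enzymes form a block of high r with a median of 0.74, in which Acat2 and Ggps1 are paler. Insig2, Mbtps1, Mbtps2, Stard4, Mylip and Npc1 stand apart from it.

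Of the named genes outside the list with a value on every array, those whose deviations from the group mean followed the mean of the members most closely over the 21 livers were Rdh11 (r = 0.91), a retinol dehydrogenase, Erg28 (0.88), Mmab (0.86) and Focad (0.85). Ttc13, Armc5, Dlat and Smarca4 followed at 0.82, 0.79, 0.78 and 0.77. Rdh11 differed between the groups by 0.28 ± 0.14 and Erg28 by 0.13 ± 0.06 (SE), with limma adjusted p of 0.866 and 0.828. The values of Focad, Ttc13, Dlat and Smarca4 were -0.041, -0.062, -0.062 and -0.059, so genes that followed the members between livers did not all share the direction between the groups. In the RefSeq annotation (GRCm38.p6) Mmab lies 191 bases from Mvk, so the Mvk promoter shown above spans the gap between them.

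Lists of other branches of sterol and lipid metabolism had smaller medians than the enzymes. Of the 14 genes of the isoprenoid branch, which draw on farnesyl and geranylgeranyl diphosphate for prenylation, dolichol and ubiquinone, 7 had a value above 0 and 0 had an unadjusted p under 0.05, at a median of -0.0038. Its lowest p belonged to Rabggtb (0.085 ± 0.042, SE), Pggt1b (-0.13 ± 0.09) and Dhdds (0.056 ± 0.044). Of 16 tested genes of SREBP1 and fatty acid synthesis, 5 had a value above 0, at a median of -0.046, with Acly at 0.19 ± 0.13, Scd1 at -0.20 ± 0.14 and Acacb at 0.18 ± 0.17, and none had an unadjusted p under 0.05.

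Of 15 tested genes of sterol esterification, export and the LXR receptors, 8 had a value above 0, at a median of 0.0019. Abcg1, a sterol exporter, differed by -0.14 ± 0.06 (limma unadjusted p = 0.0344), Cyp27a1, a bile acid synthesis enzyme, by 0.11 ± 0.05 (0.0386), and Abcg5, a subunit of the biliary sterol transporter, by -0.27 ± 0.13 (0.0578). The largest value of that list was for Cyp7a1, which starts the main route from cholesterol to bile acids, at 0.37 ± 0.40 (0.363), and Cyp7b1, of another route to bile acids, was at 0.24 ± 0.14 (0.0963), both chosen after their values were seen. Of 10 tested genes of sterol-regulated degradation in the endoplasmic reticulum, 8 had a value above 0, at a median of 0.028, with Erlin2 at -0.075 ± 0.034 (0.0353), Syvn1 at 0.20 ± 0.11 and Rnf139 at 0.056 ± 0.037. Of 10 genes of COPII transport, the coat that carries Scap to the Golgi, 3 had a value above 0, at a median of -0.018, with Sec23a at -0.070 ± 0.038, Sec23b at 0.13 ± 0.07 and Sec24d at 0.067 ± 0.057. None of these lists held a gene past the adjusted threshold in limma.

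Several members were read by more than 1 probe, and 15 had further kept probes. Of those 17 further probes, 12 had a difference of the same sign as the brightest one, which stands for the gene. For Mvk and Pmvk the second probes gave 0.26 and 0.42 and correlated with the first over the arrays at r = 0.97 and 0.99. The second probe of Hmgcs1, well above background on 14 arrays, gave 0.025, and the third of Hsd17b7 gave -0.064 against 0.18. Other probes of Ggps1 gave -0.014 and 0.069 against 0.015, at r = 0.33 and -0.076 with the one used. The other probe of Lbr, well above background on 13 arrays, gave -0.0075 against 0.10, at r = 0.046. The signs of Hsd17b7, Ggps1 and Lbr thus depended on the probe. The second probe of Srebf2 gave 0.031 and correlated with the first at r = -0.032, so the value of Srebf2 depends on its probe. On mouse build NCBI37, per the array files, the Fdps probe lies at chr3:88897549-88897608 on the minus strand, the Sqle probe at chr15:59162688-59162747 on the plus strand and the Insig1 probe at chr5:28404246-28404305 on the plus strand. No gene models of that build were used here, so exon and UTR positions of the probes are not given.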

How the data were processed

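Each of the 21 arrays compared 1 mouse liver (10 HF-Q, 11 HF) in Cy5 with a pool of all livers in Cy3. Of 24 mice, 3 arrays were excluded by the authors, per the labels. The authors deposited scanner output with mean and background intensity per spot and channel, not normalized, per the file headers, made with Agilent Feature Extraction 10.7.3.1, per the submitters' processing notes. Its processed intensity values had background subtracted and dyes normalized, and its flags of 0 or 1 mark spots well above background, saturated or uneven, per the file headers. A deposited table of log2 values has equal column medians by a step not given in the sources used here, and served as an alternative only.

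Background was corrected with normexp (offset 50), which draws ratios of dim probes toward 0, and log2 ratios were normalized by loess within arrays in limma 3.58.1 (R 4.3.3), with 3671 control spots and marked spots at weight 0 and then left out. Probes were kept where Cy5 was well above background on 10 or more of the 21 arrays, and the brightest stood for its gene. The groups were compared by limma's moderated test, two-sided, with Benjamini-Hochberg adjustment over 19718 genes. The p-values of limma set the difference between the groups against the spread between mice. The test was tested on simulated data.

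The members, lists, tests and alternatives were chosen with earlier results of these data known. All 31 members are named, with the 3 genes of lowest p per further list and the 8 non-member genes most like the member mean. The 10 replicate numbers that both groups use were not treated as a pairing in the main fit, and 1 of 10 pairs correlated above 0.1 (r = -0.34 to 0.16). These correlations cannot show whether the numbers mark a pairing, since paired livers need not correlate over all genes. No pair of arrays was identical. The number of arrays limits the precision.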

Additional observations from a re-analysis of the deposited data

Results flagged for a closer look

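In HF-Q replicate 10 the log2 ratio of Idi1 was -0.65, with the other HF-Q livers at -0.16 to 0.36, a gap of 0.483 of the range of the group. In the same liver Nsdhl was at -0.29, with the other HF-Q livers at 0.094 to 0.41, a gap of 0.549 of the range. Both gaps were above the critical value of 0.466 for 10 livers, which chance passes in about 1 in 20 groups, and 32 sets of values were examined in all. The HF group of 11 livers was not examined in this way, except for Sqle, which had 10 HF values. The genes vary together, so these flags are not separate observations.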

How the results depend on the processing

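Across 19 alternatives, 21 fits that each left out 1 array and 2 that left out 2, 0 members passed the adjusted threshold of limma, and the number of members with a value above 0 stayed between 24 and 30 (24 of 29 in the deposited table). The count of all genes passing was 1 with array weights, 1 within slide 2 and 2 without HF replicate 11 and HF-Q replicate 10, and 0 to 4 with 1 array left out (4 without HF replicate 2, 1 without HF-Q replicate 10). The median log2 fold change of the members was 0.13 to 0.23 with 1 array left out, and 0.34, 0.25 and 0.056 within slides 1, 2 and 3. The replicate block left 0 members passing, at a median of 0.13, and 6 enzymes with an unadjusted p under 0.05 against 11. All genes higher in HF-Q at that level were 549 with the block, against 596. The block also takes out HF replicate 11, whose number no HF-Q liver has, and the fit without that liver alone gave the same median and number of enzymes. The labels give the livers only a shared number, and whether it marks a pairing is not known. Genes with an unadjusted p under 0.05 split into 596 higher and 573 lower in HF-Q, but 322 and 596 with Feature Extraction signals, 169 and 70 with median centring, and 723 and 313 in the deposited table. The number of relations with Hmgcs1 that passed was 19 to 26 under other processing and 18 to 22 with 1 array left out. Of the enzymes, Mvd turned to -0.045 and Ggps1 to -0.0030 within slide 3, and Ggps1 to -0.0053 and Ebp to -0.0028 from Cy5 alone. Within slide 1, Scap turned to -0.063, Insig2 to 0.45 and Stard4 to -0.050; within slide 2, Insig2 turned to 0.037, Mbtps1 to 0.042, Mylip to 0.094 and Npc1 to 0.035; within slide 3, Mbtps1 turned to 0.0020 and Stard4 to -0.014. Mbtps1 was 0.033 with median centring, 0.019 with all probes averaged and 0.00695 without HF replicate 11 and HF-Q replicate 10. With 1 or 2 arrays left out, Mbtps1 ranged from -0.035 to 0.00695, Insig2 from -0.25 to 0.016 and Stard4 from -0.011 to 0.10. The causes were not tested. Differences well below 0.1 on the log2 scale are within the error of most members.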
